A study of Homo sapiens with 36 samples.

Results

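The 10 genes described here are targets or partners of the transcription factor ATF4 that respond to amino acid shortage and other stresses: ASNS, PSAT1, PHGDH, SLC7A11, CHAC1, TRIB3, ATF3, DDIT3, DDIT4 and SESN2. They were taken by symbol from the 34687 genes of the authors' deposited value table, and all 10 were among the 22850 genes tested here. The choice was made with earlier results of these data known, so counts set beside the share of all genes only describe the 10. Their levels were followed over 12 groups of 3 Illumina beadchip arrays, 36 arrays in all, from WA09, an established human embryonic stem cell line, during its differentiation. The BE cultures, which the study's design names melanocyte, were collected on days 8 and 11. They received 25 ng/ml of BMP4 and 100 nM of endothelin 3 (EDN3) in addition to all compounds of the NC cultures. The NC (neural crest) cultures, collected on days 3, 6, 8 and 11, received 3 µM of the GSK3 inhibitor CHIR 99021, an activator of WNT signalling, beside both compounds of the DSi cultures. The DSi cultures (dual SMAD inhibition), collected on the same 4 days, received LDN-193189 at 100 nM, which blocks BMP receptors, and SB431542 at 10 µM, which blocks activin, Nodal and TGF-beta receptors. Day 1 and day 0 cells each formed a group. For both, the labels list the 2 inhibitors of the DSi cultures without a condition, so what day 0 cells had received cannot be read from them. All groups came from 1 cell line, which had been kept on mouse feeder cells and was plated on matrigel for differentiation. The labels do not say whether the 3 arrays of a group came from separate cultures, so p-values measure the spread between these arrays, which may be technical.

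The integrated stress response works through kinases that phosphorylate the translation factor eIF2. Among them GCN2 senses uncharged tRNA, PERK senses unfolded protein in the endoplasmic reticulum, PKR senses double-stranded RNA and HRI senses haem shortage. Phosphorylated eIF2 lowers general protein synthesis while the ATF4 messenger RNA is translated more, and ATF4, paired with a C/EBP factor, then binds C/EBP-ATF elements and raises genes for amino acid uptake, synthesis and tRNA charging. Several of these genes are also driven by other factors, DDIT4 by hypoxia and p53 among them, and cultured pluripotent cells are known for high serine and one-carbon metabolism.

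The core of the C/EBP-ATF element, TGATGNAA read on either strand, was looked up in RefSeq promoter windows (build GRCh38.p14) of 300 bases, 250 before to 50 after each annotated start. Of the 10 genes, 9 had a window and 3 of these held the motif, against 1217 of 27305 genes (4.457%) and 1270 of 35116 windows (3.617%) overall. These 3 sequences are shown because they place ATF4's binding word beside the genes whose levels follow. They are written 5′ to 3′ on the gene's strand, with the motif in capitals and 40 bases on each side.
ASNS (chr7:97872429-97872516, minus strand, motif 68 bases before the start): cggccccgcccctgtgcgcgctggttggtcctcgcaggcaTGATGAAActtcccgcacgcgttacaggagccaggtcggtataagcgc
ATF3 (chr1:212565176-212565263, plus strand, motif 191 bases before the start): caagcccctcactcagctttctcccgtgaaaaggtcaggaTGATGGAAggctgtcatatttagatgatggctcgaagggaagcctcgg
CHAC1 (chr15:40953222-40953309, plus strand, motif 209 bases before the start, on the opposite strand and so read as TTGCATCA): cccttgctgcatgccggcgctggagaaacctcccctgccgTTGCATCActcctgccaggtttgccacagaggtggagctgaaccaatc
The other window of ASNS and that of ATF3 held no match. The genes PSAT1, PHGDH, TRIB3, DDIT3, DDIT4 and SESN2 had windows in which these letters did not occur. Such windows cannot show whether a gene holds the element elsewhere. Among genes of the pathway lists described further on, 5 of 11 amino acid transporters and enzymes (45.455%) and 7 of 16 aminoacyl-tRNA synthetases (43.75%) held the motif in a window. So did 2 of 7 other ATF4 targets, 2 of 10 ATF4 axis regulators and 1 of 13 endoplasmic reticulum chaperones and unfolded protein response genes. In the hypoxia, p53, NRF2 and immediate early lists 0 genes held it.

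Levels are given as log2 of the background-corrected, quantile-normalized bead signal, a scale on which 1 unit is a doubling and on which levels of different genes cannot be set against each other. Between 33.926% and 41.68% of the 47323 probes were above background (detection p under 0.05) on an array. Markers matched the labelled course: the pluripotency factor POU5F1 averaged 4.40 in BE, 4.43 in NC and 4.68 in DSi cultures at day 11, against 10.28 at day 0, and it was above background on 0, 0, 1 and 3 arrays of these groups. At day 11 the melanocyte gene MLANA averaged 11.19 in BE, 5.76 in NC and 4.80 in DSi cultures, but the 6 melanocyte markers together did not follow this order: their summed linear signal was 16229 to 18893 in BE, 2725 to 4285 in NC and 4883 to 8688 in DSi cultures, against 339 to 436 at day 0, and 4 of 6 were higher in DSi day 11 than at day 0. The neural crest factor SOX10 averaged 10.11, 10.27 and 4.47 in the same order, and the neural progenitor factor LHX2 averaged 4.55, 4.47 and 12.11. Of 5 neural crest markers 4 were already higher in NC than in DSi cultures at day 6 and 5 at day 8, and of 4 neural progenitor markers 3 were lower on each of these days. The summed linear signal of 6 pluripotency markers was 3589 to 3654 in BE, 4465 to 5023 in NC and 3568 to 6081 in DSi cultures at day 11, against 14235 to 16232 at day 0. That of 5 mesenchymal markers was 4657 to 6242 in BE, 2713 to 3689 in NC and 1064 to 1913 in DSi cultures, against 1427 to 2223 at day 0, and that of 5 neuron markers was 329 to 844, 7874 to 14032 and 441 to 655, against 199 to 245. Their part in the results was not tested, and in these bulk samples fewer cells of a type and less RNA per cell cannot be told apart.

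By day 11, 6 of the 10 genes, ASNS, PSAT1, PHGDH, TRIB3, CHAC1 and SLC7A11, were lower than at day 0 in all 3 conditions, SESN2 was lower in BE alone by this test, and DDIT4 was the one of the 10 that passed the test as higher. ASNS was 10.4-fold lower in BE, 5.12-fold lower in NC and 5.19-fold lower in DSi cultures, and PSAT1 was 4.68-fold, 3.42-fold and 2.17-fold lower in the same order. PHGDH was 3.32-fold, 2.17-fold and 1.31-fold lower. TRIB3 was 2.93-fold lower in BE, 6.07-fold lower in NC and 6.31-fold lower in DSi cultures. DDIT4, an inhibitor of mTORC1, was 4.72-fold, 5.14-fold and 3.60-fold higher. ATF3 and DDIT3 passed the test in none of the 3 comparisons. Between BE day 11 and day 0, 1 gene was higher and 7 were lower of the 10, where 14.5% of all genes tested were higher and 14.3% lower. NC day 11 against day 0 had 1 higher and 6 lower, with 15.0% and 14.4% of all genes. For DSi day 11 against day 0 the count was likewise 1 higher and 6 lower, with 13.7% and 13.6% of all genes. The median log2 difference of the 10 genes was -1.31 in BE, -1.06 in NC and -0.84 in DSi cultures, where the median of all genes was -0.02, -0.02 and -0.01. These 3 comparisons share the day 0 arrays. Each count of lower genes includes SLC7A11, which entered the test only through its day 0 arrays, so that it could only come out lower. A gene was called with an adjusted p under 0.05, from a limma model over all arrays with Benjamini-Hochberg adjustment over all genes of a comparison.

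**Figure D1:**
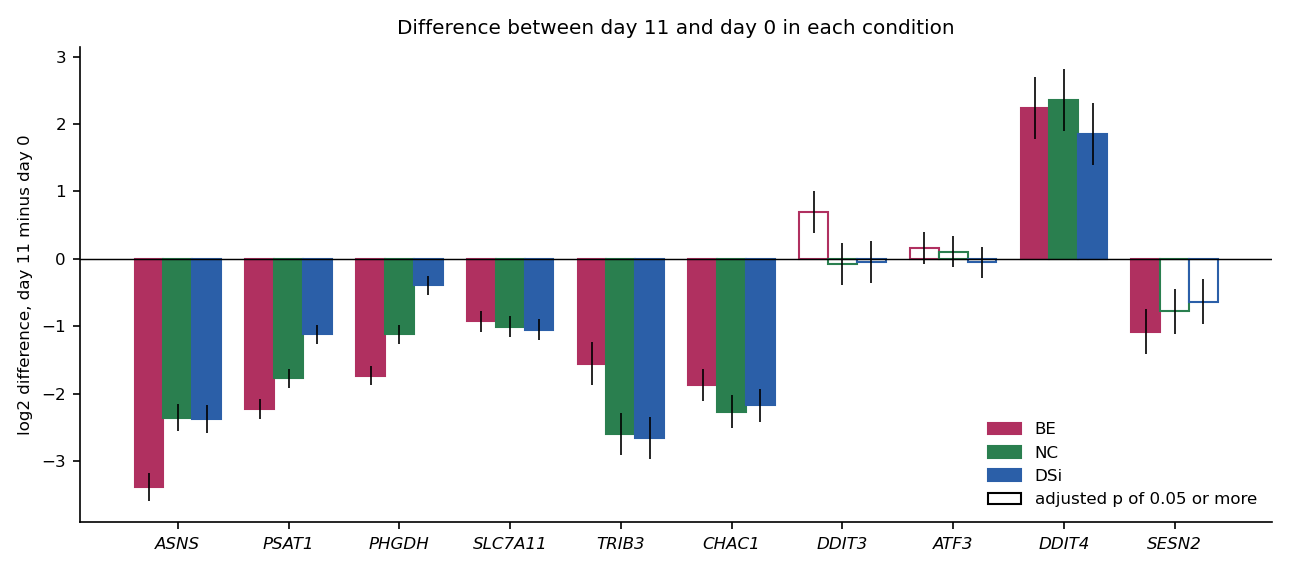
Log2 difference between day 11 and day 0 for each of the 10 genes in the BE, NC and DSi conditions. Bars are white where the adjusted p was 0.05 or more, and error bars are 1 standard error from the fit. ASNS lies furthest down in BE (-3.38), and DDIT4 lies above 0 in all 3 conditions (2.24, 2.36 and 1.85).

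ASNS makes asparagine from aspartate and glutamine. Its level was 11.59, 11.53 and 11.70 on the 3 arrays at day 0 and 11.47, 11.62 and 11.67 at day 1. At day 3 it was 10.99, 10.83 and 11.17 in NC and 10.95, 10.79 and 11.16 in DSi cultures, and at day 6 it was 9.54, 9.20 and 9.41 in NC and 9.85, 9.84 and 8.84 in DSi cultures. The step between days 3 and 6 left no overlap between the arrays of the 2 days in either condition. At day 8 ASNS was 8.76, 8.85 and 8.29 in BE, 9.16, 9.39 and 8.75 in NC and 9.28, 9.47 and 8.92 in DSi cultures. At day 11 it was 8.34, 8.27 and 8.06 in BE, 9.18, 9.16 and 9.41 in NC and 8.84, 9.77 and 9.09 in DSi cultures. All 3 BE arrays of day 11 lay below every NC and DSi array of that day, while NC and DSi arrays overlapped throughout. The log2 difference from day 0 was -3.38 (SE 0.20, adjusted p = 4.99e-18) in BE, -2.36 (SE 0.20, adjusted p = 4.25e-13) in NC and -2.38 (SE 0.20, adjusted p = 3.79e-13) in DSi cultures at day 11. In the order of its group means, from day 0 down to BE day 11, only 2 neighbouring pairs did not overlap in their arrays: NC day 3 below day 1, and DSi day 6 below DSi day 3.

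PHGDH catalyses the first step of serine synthesis from a glycolytic intermediate and PSAT1 the next. PHGDH was 12.86, 12.91 and 13.08 at day 0 and 13.23, 13.11 and 13.34 at day 1, its highest group. At day 3 it was 12.62, 12.55 and 12.83 in NC and 12.55, 12.77 and 12.98 in DSi cultures. The arrays of these 2 conditions still overlapped at day 6, with 12.15, 12.34 and 12.42 in NC and 12.52, 12.61 and 12.03 in DSi cultures. At day 8 PHGDH was 11.55, 11.62 and 11.67 in BE, 11.98, 11.90 and 12.11 in NC and 12.47, 12.62 and 12.65 in DSi cultures. At day 11 it was 11.24, 11.21 and 11.21 in BE, 11.97, 11.64 and 11.88 in NC and 12.82, 12.15 and 12.70 in DSi cultures. On both days the 3 conditions did not overlap and stood in the order BE, NC, DSi from low to high. Relative to day 0, PHGDH at day 11 was lower by a log2 difference of -1.73 (SE 0.14, adjusted p = 9.51e-14) in BE, -1.12 (SE 0.14, adjusted p = 1.41e-08) in NC and -0.39 (SE 0.14, adjusted p = 0.0339) in DSi cultures. The last call was lost without DSi day 11 replicate 2 (-0.19, adjusted p = 0.411), day 0 replicate 2 (-0.41, adjusted p = 0.059) or day 0 replicate 3 (-0.33, adjusted p = 0.143).

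PSAT1 was highest at day 0. It was 11.69, 11.87 and 11.92 at day 0, and 11.56, 11.64 and 11.97 at day 1. At day 6 it was 10.10, 10.50 and 10.48 in NC and 10.73, 10.91 and 10.88 in DSi cultures, which did not overlap. At day 8 PSAT1 was 9.95, 9.92 and 10.30 in BE, 10.31, 10.28 and 10.18 in NC and 10.58, 10.76 and 10.52 in DSi cultures, so that BE and NC arrays overlapped below those of DSi. On day 11 PSAT1 was 9.46, 9.48 and 9.86 in BE, 10.22, 9.87 and 10.08 in NC and 10.58, 10.76 and 10.79 in DSi cultures. Each BE array of day 11 lay below each NC array, and each NC array below each DSi array. The log2 difference from day 0 was -2.22 (SE 0.14, adjusted p = 4.65e-17) in BE, -1.77 (SE 0.14, adjusted p = 5.78e-14) in NC and -1.12 (SE 0.14, adjusted p = 2.10e-08) in DSi cultures. A second probe of PSAT1 was above background on 0 arrays, and both probes of ASNS were above background on all 36.

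SLC7A11 is the cystine and glutamate exchanger that supplies cysteine for glutathione, and CHAC1 degrades glutathione. SLC7A11 was above background at day 0 alone, with 5.33, 5.74 and 5.60 on its 3 arrays. It entered the test only through these arrays, so its calls against day 0 could only be lower. On the other 33 arrays it was not above background, so its day 11 level is only a bound: it was at least 1.35-fold lower in BE (adjusted p = 5.19e-06), at least 1.34-fold lower in NC (adjusted p = 1.13e-06) and at least 1.31-fold lower in DSi cultures (adjusted p = 4.86e-07) than at day 0. For a fold written as "at least", each array of the dim group entered at its own signal or at its lowest signal above background, whichever was higher. CHAC1 was 6.82, 6.76 and 6.69 at day 0 and 5.87, 6.95 and 6.63 at day 1. At day 3 it was above background on 1 of 3 NC arrays and 2 of 3 DSi arrays, and from day 6 on it was above background on 1 array, BE day 11 replicate 2 at 5.35. At day 11 it was at least 3.07-fold lower in NC (adjusted p = 1.75e-10) and at least 3.01-fold lower in DSi cultures (adjusted p = 6.31e-10) than at day 0. In BE cultures the fitted log2 difference was -1.87 (SE 0.24, adjusted p = 2.28e-08) and leaned on signals at background on 2 of its 3 arrays.

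TRIB3, ATF3 and DDIT3 are regulators within the response, and their courses differed from each other. TRIB3, a pseudokinase that restrains ATF4, was 8.37, 7.94 and 7.91 at day 0 and 6.77, 7.57 and 6.69 at day 1. At day 8 it was 6.09, 5.91 and 5.67 in BE, 5.10, 4.94 and 5.24 in NC and 5.52, 5.52 and 5.73 in DSi cultures, of which the first 2 NC values were not above background. At day 11 it was 6.00, 7.20 and 6.36 in BE, 4.85, 5.82 and 5.74 in NC and 5.69, 5.38 and 5.17 in DSi cultures, the first NC value not above background. The BE arrays lay above those of NC and DSi cultures on day 11 and below those of day 0. The log2 difference from day 0 was -1.55 (SE 0.31, adjusted p = 0.000101) in BE, -2.60 (SE 0.31, adjusted p = 4.03e-09) in NC and -2.66 (SE 0.31, adjusted p = 2.68e-09) in DSi cultures.

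ATF3, a stress-induced transcription factor of the ATF/CREB family, was lower at day 3 and near its day 0 level again at day 11, with NC above DSi arrays in between. It was 8.12, 8.54 and 8.10 at day 0, 7.75, 8.33 and 8.23 at day 1, and at day 3 it was 7.20, 6.50 and 7.64 in NC and 7.04, 7.01 and 7.22 in DSi cultures. At day 6 it was 8.19, 7.41 and 8.50 in NC and 6.10, 6.65 and 6.64 in DSi cultures. At day 8 it was 8.44, 8.59 and 8.53 in BE, 7.97, 8.07 and 8.57 in NC and 6.58, 6.68 and 6.91 in DSi cultures. NC and DSi arrays thus overlapped at day 3 and stood apart at days 6 and 8. At day 11 ATF3 was 8.18, 8.68 and 8.37 in BE, 8.45, 8.34 and 8.30 in NC and 8.08, 8.13 and 8.40 in DSi cultures, which overlapped again. Its log2 difference from day 0 at day 11 was 0.16 (SE 0.23, adjusted p = 0.707) in BE, 0.11 (SE 0.23, adjusted p = 0.814) in NC and -0.05 (SE 0.23, adjusted p = 0.917) in DSi cultures. Both other probes of ATF3 were above background on 0 arrays.

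DDIT3 encodes CHOP, the factor that links lasting endoplasmic reticulum stress to cell death. It was 6.38, 6.08 and 6.19 at day 0, and at day 6 it was 5.59, 4.94 and 5.55 in NC and 4.48, 4.63 and 4.86 in DSi cultures, where it was above background on 2 and 0 of 3 arrays. At day 8 it was 5.62, 6.37 and 5.93 in BE, 5.21, 5.98 and 5.34 in NC and 5.36, 4.69 and 4.87 in DSi cultures, the last 2 not above background. Day 11 values were 6.82, 6.93 and 6.97 in BE, 5.44, 6.41 and 6.57 in NC and 5.95, 6.66 and 5.89 in DSi cultures. Its 3 BE arrays of day 11 were higher than all 33 others. Against day 0 the BE difference was 0.69 on the log2 scale (SE 0.31, adjusted p = 0.0977), which did not pass the test. It passed with no background correction (0.37, adjusted p = 0.0381) and with the authors' values (0.37, adjusted p = 0.0469).

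DDIT4 and SESN2 both restrain mTORC1, the kinase complex that couples growth to nutrients: DDIT4 acts through the TSC complex, and SESN2 is a leucine sensor. DDIT4 was 9.27, 9.38 and 9.38 at day 0 and 11.25, 10.69 and 11.00 at day 1, with no overlap. At day 8 it was 11.77, 11.71 and 11.12 in BE, 11.92, 12.21 and 11.58 in NC and 11.49, 10.87 and 9.82 in DSi cultures. Day 11 values were 10.27, 12.08 and 12.40 in BE, 10.76, 12.25 and 12.11 in NC and 9.33, 12.00 and 12.25 in DSi cultures. Replicate 1 was the lowest array in each of the 3 conditions on that day, and in DSi cultures it lay within the range of day 0. The log2 difference from day 0 was 2.24 (SE 0.46, adjusted p = 0.000125) in BE, 2.36 (SE 0.46, adjusted p = 5.68e-05) in NC and 1.85 (SE 0.46, adjusted p = 0.0015) in DSi cultures, where it was 2.78 without DSi day 11 replicate 1 (adjusted p = 5.97e-07). The hypoxia gene ANKRD37 was likewise lowest on replicate 1 at day 11: it was 5.64, 8.89 and 9.25 in BE, 4.96, 8.96 and 8.49 in NC and 4.73, 7.97 and 8.03 in DSi cultures. Of the other hypoxia genes on day 11, ADM was also lowest on replicate 1 in all 3 conditions, BNIP3 in BE and NC, VEGFA in NC and DSi, and EGLN3 in NC, whereas NDRG1 was lowest there in none, and replicate 1 was the highest for EGLN3 in BE and for NDRG1 in DSi cultures. Their part in the DDIT4 values was not tested.

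SESN2 was 6.34, 6.58 and 5.58 at day 0, 6.67, 6.49 and 6.98 at day 1, and at day 3 it averaged 6.37 ± 0.45 in NC and 6.57 ± 0.59 in DSi cultures (SD, n = 3 each). From day 6 on its group means lay between 5.03 and 5.60, with 1 to 3 of 3 arrays above background in a group. At day 11 it averaged 5.09 ± 0.26 in BE, 5.39 ± 0.43 in NC and 5.54 ± 0.65 in DSi cultures, against 6.17 ± 0.52 at day 0 (SD, n = 3 each). The difference passed the test in BE (-1.08, SE 0.33, adjusted p = 0.0105), where it was lost without BE day 11 replicate 1 (-0.97, adjusted p = 0.051) or day 0 replicate 2 (-0.87, adjusted p = 0.0819). In NC it was -0.78 (SE 0.33, adjusted p = 0.0753) and passed without day 0 replicate 3 (-1.07, adjusted p = 0.0231) or NC day 11 replicate 3 (-0.99, adjusted p = 0.0422). In DSi it was -0.63 (SE 0.33, adjusted p = 0.171).

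**Figure D2:**
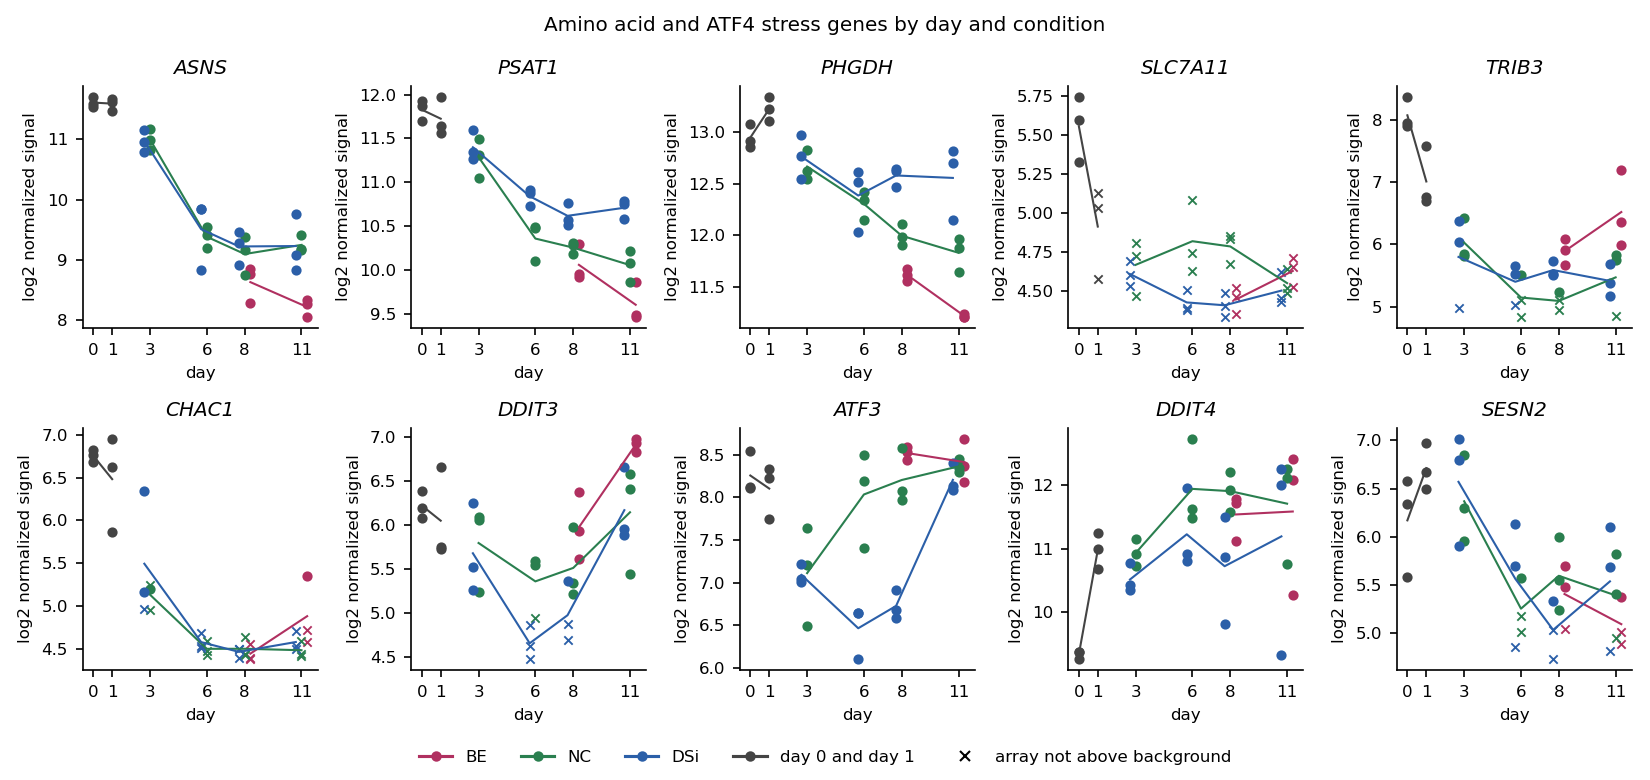
Log2 normalized signal of each of the 10 genes by day, with 1 mark per array, lines through the group means of each condition, and crosses for arrays not above background. ASNS, PSAT1 and PHGDH fall over the course, ATF3 dips at days 3 to 8 in DSi cultures, and DDIT4 lies above its day 0 level (9.34 on average) in every later group.

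The first day of the course moved few of the 10 genes. DDIT4 was 3.11-fold higher at day 1 than at day 0 (log2 difference 1.64, SE 0.46, adjusted p = 0.0279), TRIB3 was 2.09-fold lower (-1.06, SE 0.31, adjusted p = 0.0396), and SLC7A11 was at least 1.20-fold lower (adjusted p = 0.00795). That is 1 higher and 2 lower of 10, where 2.41% of all genes were higher and 2.00% lower. The 2 lower include SLC7A11, which entered the test only through its day 0 arrays. The DDIT4 call was lost without day 0 replicate 1, 2 or 3 or day 1 replicate 1 or 3 (1.50 to 1.65, adjusted p = 0.072 to 0.111), and that of TRIB3 without the same 5 arrays, each in turn (-1.14 to -0.90, adjusted p = 0.0658 to 0.203). SLC7A11 lost its call without day 0 replicate 2 (-0.55, adjusted p = 0.0716) or day 1 replicate 2 (-0.48, adjusted p = 0.118). The DDIT4 call was also lost with the authors' values (1.53, adjusted p = 0.087), median scaling over all probes (1.20, adjusted p = 0.0759) or the mean over probes (adjusted p = 0.0573). With no detection filter TRIB3 lost its call (adjusted p = 0.0501).

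Between day 1 and day 3 ATF3, CHAC1, TRIB3, ASNS and PHGDH fell in both conditions. ATF3 was 1.99-fold lower in NC day 3 than in day 1 cells (log2 difference -0.99, SE 0.23, adjusted p = 0.00224) and 2.02-fold lower in DSi day 3 (-1.01, SE 0.23, adjusted p = 0.00239). CHAC1 was lower by -1.35 in NC (SE 0.24, adjusted p = 6.59e-05) and by -0.99 in DSi cultures (SE 0.24, adjusted p = 0.00452). TRIB3, ASNS and PHGDH differed by -0.98, -0.59 and -0.56 in NC and by -1.21, -0.62 and -0.46 in DSi cultures. PSAT1 passed in NC (-0.44, adjusted p = 0.0343) and was -0.33 in DSi cultures (adjusted p = 0.168). The counts were 0 higher and 6 lower in NC day 3 against day 1, with 6.70% and 6.35% of all genes, and 0 higher and 5 lower in DSi day 3 against day 1, with 4.97% and 4.66%. Both comparisons share the day 1 arrays.

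Several of these day 3 calls were lost when 1 array was left out. That of ASNS in NC cultures lay near the threshold (limma adjusted p = 0.0452). In NC cultures ASNS lost its call without any 1 of the 3 NC day 3 arrays, the 3 day 1 arrays or day 0 replicates 1 and 2 (-0.68 to -0.51, adjusted p = 0.0503 to 0.15). TRIB3 lost it without NC day 3 replicate 1 or 2 or day 1 replicate 2 (-0.89 to -0.70, adjusted p = 0.0918 to 0.238), PSAT1 without NC day 3 replicate 1 or 2 or day 1 replicate 2 or 3 (-0.48 to -0.31, adjusted p = 0.0561 to 0.234), and ATF3 without NC day 3 replicate 2 (-0.68, adjusted p = 0.0528). In DSi cultures ASNS lost it without DSi day 3 replicate 1 or 2 or any day 1 array (-0.68 to -0.53, adjusted p = 0.0568 to 0.158), and PHGDH without DSi day 3 replicate 1 or 2 or day 1 replicate 1 or 3 (-0.46 to -0.36, adjusted p = 0.0611 to 0.201). CHAC1 lost it without DSi day 3 replicate 1 or 2 or day 1 replicate 2 (-0.82 to -0.72, adjusted p = 0.0561 to 0.0747), and TRIB3 without DSi day 3 replicate 2 (-0.80, adjusted p = 0.129) or day 1 replicate 2 (-0.93, adjusted p = 0.105).

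Between day 3 and day 11 ASNS and PSAT1 fell and ATF3 rose in both conditions, and PHGDH fell in NC cultures. ASNS was 3.35-fold lower in NC day 11 than in NC day 3 cultures (log2 difference -1.74, SE 0.20, adjusted p = 2.51e-09) and 3.33-fold lower in DSi day 11 than in DSi day 3 (-1.74, SE 0.20, adjusted p = 4.21e-09). PSAT1 differed by -1.23 in NC (SE 0.14, adjusted p = 2.48e-09) and by -0.69 in DSi cultures (SE 0.14, adjusted p = 0.000254), and PHGDH by -0.84 in NC (SE 0.14, adjusted p = 7.51e-06) and by -0.21 in DSi cultures (SE 0.14, adjusted p = 0.358). ATF3 was 2.38-fold higher in NC (adjusted p = 3.80e-05) and 2.16-fold higher in DSi cultures (adjusted p = 0.00028). SESN2 was lower by -0.98 in NC (adjusted p = 0.0236) and by -1.03 in DSi cultures (adjusted p = 0.0199), and CHAC1 passed as lower in both (adjusted p = 0.0421 and 0.00409). CHAC1 was above background on 0 of 3 day 11 arrays of either condition, which makes it at least 1.26-fold lower in DSi cultures and allows no fold in NC cultures, where 1 of 3 day 3 arrays was above background. NC cultures thus had 1 higher and 5 lower of 10, where 13.0% of all genes were higher and 13.4% lower. DSi cultures had 1 higher and 4 lower, where 10.1% were higher and 11.0% lower.

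Again some calls were lost when 1 array was left out. SESN2 lost its call in NC cultures without NC day 11 replicate 1 or 2 or NC day 3 replicate 3 (-0.98 to -0.74, adjusted p = 0.0509 to 0.161), and in DSi cultures without DSi day 11 replicate 2 or DSi day 3 replicate 2 or 3 (-0.92 to -0.67, adjusted p = 0.0835 to 0.212). CHAC1 lost it in NC cultures without any day 11 array or day 3 replicate 1 or 3 (adjusted p = 0.0613 to 0.126), and in DSi cultures without DSi day 3 replicate 3 (adjusted p = 0.152). The PHGDH call in NC cultures was lost with median scaling over all probes (-0.55, adjusted p = 0.0806). DDIT4 did not pass in DSi cultures (0.68, SE 0.46, adjusted p = 0.351) and passed without DSi day 11 replicate 1 (1.61, adjusted p = 0.00317).

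In BE cultures DDIT3 was called higher and PSAT1 lower at day 11 than at day 8, and neither call held throughout. DDIT3 was 1.91-fold higher at BE day 11 than at BE day 8 (log2 difference 0.94, SE 0.31, adjusted p = 0.0467) with no overlap of arrays. PSAT1 was 1.37-fold lower (-0.46, SE 0.14, adjusted p = 0.0335), and PHGDH differed by -0.40 (SE 0.14, adjusted p = 0.0705). The count of 1 higher and 1 lower stood beside 4.97% of all genes higher and 4.65% lower. The DDIT3 call lay at the threshold and was lost without any 1 of 12 arrays: the 3 of BE day 11, the 3 of day 0, BE day 8 replicates 1 and 3, DSi day 6 replicates 1 and 2, DSi day 8 replicate 3 and NC day 8 replicate 3 (0.76 to 0.98, adjusted p = 0.0501 to 0.228). PSAT1 lost its call without BE day 11 replicate 1 or 2 or BE day 8 replicate 3 (-0.40 to -0.34, adjusted p = 0.149 to 0.227). It also lost it with the authors' values (adjusted p = 0.0802), median scaling over all probes (-0.23, adjusted p = 0.707) or no detection filter (adjusted p = 0.0531). The DDIT3 call was lost with no detection filter (adjusted p = 0.0638) or median scaling over detected probes (adjusted p = 0.0533). PHGDH gained one at an unchanged difference without DSi day 11 replicate 2 (adjusted p = 0.0407) or DSi day 6 replicate 3 (adjusted p = 0.0471).

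Set against DSi cultures of the same day, NC cultures had more ATF3 at days 6 and 8 and less PSAT1 or PHGDH from day 6 on. At day 3, 0 of the 10 genes passed limma's test and 0 had an unadjusted p under 0.05, where 0.267% of all genes were higher and 0.214% lower. At day 6 ATF3 was 2.96-fold higher in NC (log2 difference 1.57, SE 0.23, adjusted p = 4.99e-06) and PSAT1 was 1.40-fold lower (-0.48, SE 0.14, adjusted p = 0.0347). This count of 1 higher and 1 lower stood beside 2.67% and 2.72% of all genes. At day 8 ATF3 was 2.78-fold higher (1.48, SE 0.23, adjusted p = 9.14e-06) and PHGDH was 1.50-fold lower (-0.59, SE 0.14, adjusted p = 0.0047), again 1 higher and 1 lower, beside 3.37% and 3.32%. At day 11 PHGDH was 1.66-fold lower (-0.73, SE 0.14, adjusted p = 0.000177) and PSAT1 1.57-fold lower (-0.65, SE 0.14, adjusted p = 0.000881), with 0 higher and 2 lower beside 5.55% and 5.56% of all genes. ASNS differed by 0.03, -0.13, -0.13 and 0.02 at days 3, 6, 8 and 11 (SE 0.20 each).

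The PSAT1 call of day 6 was lost without NC day 6 replicate 1 or DSi day 6 replicate 2 or 3 (-0.46 to -0.36, adjusted p = 0.102 to 0.269). DDIT4 at day 8 was higher in NC by 1.18 (SE 0.46, adjusted p = 0.14) and passed, at the same difference, without DSi day 11 replicate 1 (adjusted p = 0.0405). With median scaling over all probes in place of quantile normalization, both day 11 calls were lost (PHGDH -0.56, adjusted p = 0.162, and PSAT1 -0.56, adjusted p = 0.143), as was that of PHGDH at day 8 (-0.60, adjusted p = 0.143).

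Set against NC cultures, BE cultures at day 11 had less ASNS, PHGDH and PSAT1 and more TRIB3. ASNS was 2.04-fold lower (log2 difference -1.03, SE 0.20, adjusted p = 0.000286), PHGDH 1.53-fold lower (-0.61, SE 0.14, adjusted p = 0.00224) and PSAT1 1.37-fold lower (-0.45, SE 0.14, adjusted p = 0.0382), while TRIB3 was 2.07-fold higher (1.05, SE 0.31, adjusted p = 0.0251). This was 1 higher and 3 lower of 10, where 4.67% of all genes were higher and 4.06% lower. At day 8, 0 genes passed limma's test and 4 had an unadjusted p under 0.05, where 1.25% of all genes were higher and 0.604% lower. The differences then were -0.46 for ASNS (SE 0.20, adjusted p = 0.388), -0.38 for PHGDH (SE 0.14, adjusted p = 0.233) and 0.80 for TRIB3 (SE 0.31, adjusted p = 0.282), and the fourth gene, SLC7A11 (adjusted p = 0.428), was not above background on any of these arrays. At day 11 TRIB3 lost its call without BE day 11 replicate 2 (0.71, adjusted p = 0.274) or NC day 11 replicate 1 (0.74, adjusted p = 0.238), and PSAT1 without BE day 11 replicate 1 or 2 or NC day 11 replicate 1 or 3 (-0.44 to -0.37, adjusted p = 0.103 to 0.192). The calls of ASNS (-0.82, adjusted p = 0.0748), PHGDH (-0.55, adjusted p = 0.183) and PSAT1 (-0.28, adjusted p = 0.673) were lost with median scaling over all probes, and that of PSAT1 also with no background correction, the authors' values, median scaling over detected probes or no detection filter (-0.45 to -0.39, adjusted p = 0.0544 to 0.097).

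**Figure D3:**
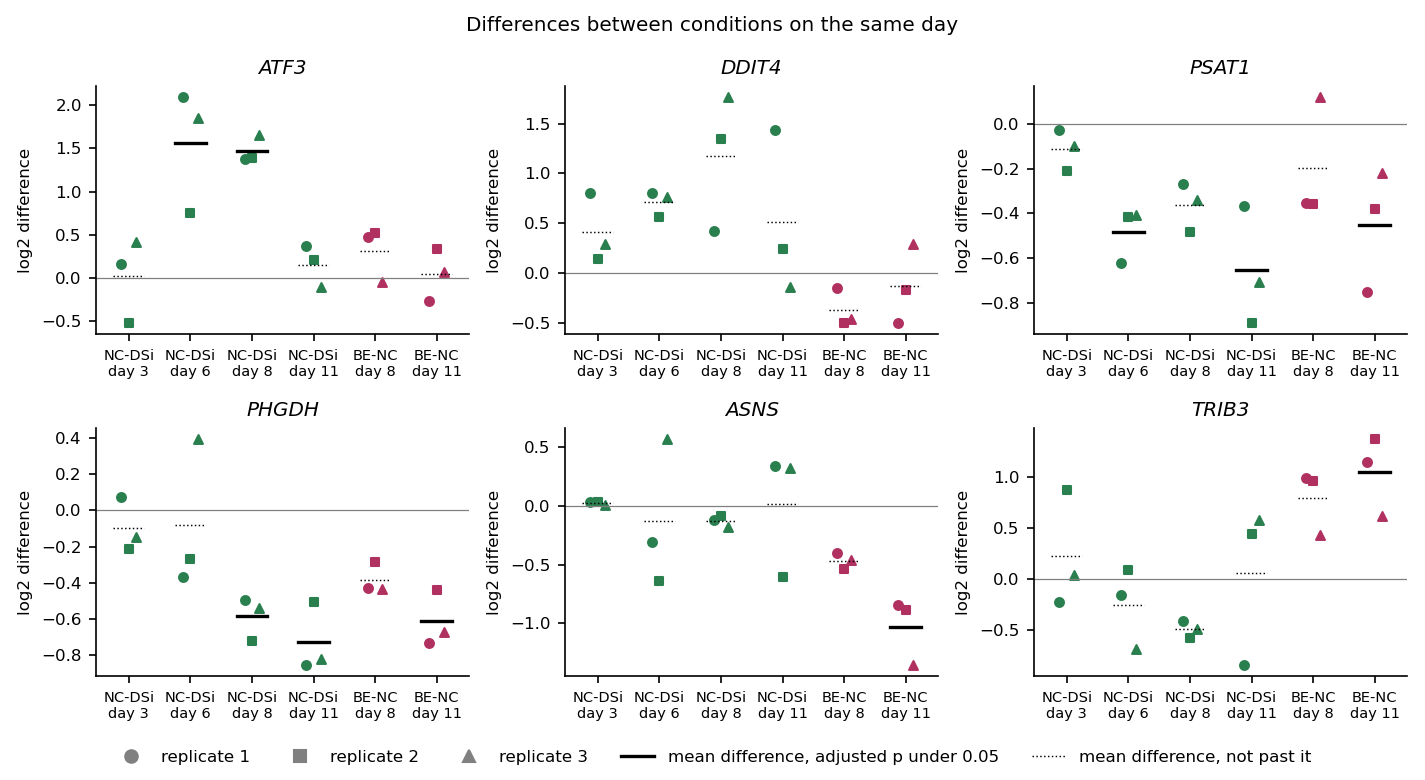
Log2 difference of ATF3, DDIT4, PSAT1, PHGDH, ASNS and TRIB3 between conditions on the same day. Shown are NC minus DSi at days 3 to 11 and BE minus NC at days 8 and 11. Each marker is the difference between arrays that share a replicate number. Lines mark the mean difference, thick and solid where the adjusted p was under 0.05 and thin and dotted where it was not. ATF3 stands out in NC at days 6 and 8 (1.57 and 1.48), and ASNS in BE at day 11 (-1.03).

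Whether the changes themselves differed between conditions was tested as a difference of differences. For the change from day 3 to day 11 in NC against DSi cultures, 0 of 10 genes passed limma's test and 2 had an unadjusted p under 0.05, beside 2.89% of all genes higher and 2.55% lower. PHGDH came closest, with a further drop of -0.63 in NC (SE 0.20, adjusted p = 0.0545), and PSAT1 was -0.54 (SE 0.20, adjusted p = 0.131). The PHGDH value passed with the replicate block in the model (adjusted p = 0.0349), with a stricter detection filter (adjusted p = 0.0435), and without NC day 11 replicate 1, NC day 3 replicate 2, DSi day 11 replicate 2, DSi day 3 replicate 3 or DSi day 6 replicate 2 or 3 (-0.83 to -0.63, adjusted p = 0.00361 to 0.0495). For the change from day 8 to day 11 in BE against NC cultures, 0 genes passed and 0 had an unadjusted p under 0.05, beside 1.12% of all genes higher and 1.30% lower.

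Among other genes of the pathway, from lists chosen by function, more were called lower than higher at day 11 against day 0. Of 15 amino acid transporters and enzymes tested, 14 were lower and 0 higher at day 11 than at day 0 in BE, 13 lower and 0 higher in NC, and 12 lower and 0 higher in DSi cultures. Their median log2 differences were -1.41, -1.28 and -1.22. Of all genes tested, 14.5%, 15.0% and 13.7% were higher in BE, NC and DSi cultures at day 11 than at day 0. The shares lower were 14.3%, 14.4% and 13.6%. SLC7A5, the light chain of the main leucine transporter, was lower by -2.60 in BE (adjusted p = 1.75e-14), -3.33 in NC (adjusted p = 5.63e-18) and -3.73 in DSi cultures (adjusted p = 1.56e-19). The glutamine transporter SLC1A5 was lower by -2.11 in NC and -2.18 in DSi cultures, and the alanine aminotransferase GPT2 by -2.22 in BE. Of 19 aminoacyl-tRNA synthetases, which charge tRNAs with amino acids, 12 were lower and 2 higher in BE, 9 lower and 2 higher in NC, and 12 lower and 2 higher in DSi cultures. AARS1 was lower by -1.81 in BE and -1.88 in NC, and CARS1 by -1.84 in DSi cultures. QARS1 was among those that rose, by 0.58 in BE, 0.66 in NC and 0.32 in DSi cultures. Of 7 other ATF4 targets, 2, 5 and 4 were lower in BE, NC and DSi cultures and 0 higher, with VLDLR, a lipoprotein receptor, at -1.03, -1.72 and -2.72. GDF15, a stress-induced hormone, was lower by -2.93 in NC and -2.78 in DSi cultures, was -0.96 in BE (adjusted p = 0.101), and stood 1.97 higher in BE day 11 than in NC day 11 (SE 0.44, adjusted p = 0.00128).

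The regulators of the ATF4 axis changed less uniformly. ATF4 itself averaged 11.81 ± 0.27 in BE, 11.89 ± 0.23 in NC and 11.41 ± 0.40 in DSi cultures at day 11, against 12.60 ± 0.07 at day 0 (SD, n = 3 each). Its log2 difference was -0.78 in BE (SE 0.15, adjusted p = 2.73e-05), -0.71 in NC (SE 0.15, adjusted p = 0.000132) and -1.19 in DSi cultures (SE 0.15, adjusted p = 6.87e-09). These are messenger RNA levels, while ATF4 is known to be set largely at translation. EIF2AK4, which encodes GCN2, was lower by -1.44 in BE and -0.92 in NC, and passed in DSi cultures too. CEBPB, a partner of ATF4, was lower by -2.11 in NC (adjusted p = 1.56e-07) and -2.17 in DSi cultures (adjusted p = 9.39e-08), was -0.25 in BE (adjusted p = 0.614), and stood 1.86 higher in BE than in NC at day 11 (SE 0.30, adjusted p = 8.12e-06). PPP1R15A, which directs dephosphorylation of eIF2, was 0.84 higher in BE (adjusted p = 0.00275). In all, 2 of 12 regulators were higher and 5 lower in BE, 0 and 4 in NC, and 0 and 5 in DSi cultures. Of all genes, 14.5% were higher and 14.3% lower in BE, 15.0% and 14.4% in NC, and 13.7% and 13.6% in DSi cultures. The count of regulators higher in BE lay near that share.

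The list of endoplasmic reticulum chaperones and other unfolded protein response genes did not follow the 10 genes. Of 12 tested, 0 were higher and 1 lower in BE, 1 and 2 in NC, and 1 and 1 in DSi cultures at day 11 against day 0. These counts lay near or below the shares of all genes, 14.5% and 14.3% in BE, 15.0% and 14.4% in NC, and 13.7% and 13.6% in DSi cultures. The chaperone HSPA5 (BiP) was higher by 0.87 in NC (adjusted p = 0.000354) and 1.16 in DSi cultures (adjusted p = 4.60e-06). Between BE day 8 and BE day 11, when DDIT3 was called higher, 6 of these 12 genes were higher and 0 lower, beside 4.97% and 4.65% of all genes. Among the 6 were SDF2L1 (1.09, SE 0.20, adjusted p = 9.30e-05) and DNAJC3 (1.02, SE 0.32, adjusted p = 0.0322). Over the same days 4 of 15 amino acid transporters and enzymes were higher and 0 lower, with SLC7A5 at 1.20 (SE 0.20, adjusted p = 2.80e-05) and SLC7A1 at 1.07 (SE 0.17, adjusted p = 1.45e-05). Markers of several cell types moved over these days: 6 of 6 melanocyte and 3 of 5 mesenchymal markers were higher, and 2 of 5 neural crest, 2 of 4 neural progenitor and 2 of 6 pluripotency markers were lower, while of 5 neuron markers 1 was higher and 1 lower. TYRP1 and MLANA were at least 48.7-fold and at least 64.9-fold higher at BE day 11 than at BE day 8, and the part of these markers in the differences was not tested.

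Between conditions of the same day the amino acid genes did not move one way. Of the 15 amino acid transporters and enzymes, 2 were higher and 3 lower in BE than in NC cultures at day 11, beside 4.67% and 4.06% of all genes. SLC3A2, the heavy chain that pairs with SLC7A5 and SLC7A11, was 1.15 higher (adjusted p = 1.99e-07) and SLC7A5 0.73 higher (adjusted p = 0.0131), while the mitochondrial folate enzyme MTHFD2 was lower by -1.29 (adjusted p = 1.51e-07) and the proline synthesis enzyme PYCR1 by -0.71. In NC against DSi cultures at day 11, 2 were higher and 2 lower, beside 5.55% and 5.56% of all genes. These were MTHFD2 at 0.91 (adjusted p = 9.35e-05), SLC7A1 at 0.87, SLC3A2 at -0.68 and SLC6A9 at -0.78. The threonyl-tRNA synthetase TARS1 was 1.13 higher in NC at that day (adjusted p = 2.08e-06), and its change from day 3 to day 11 differed between NC and DSi cultures by 1.48 (adjusted p = 1.99e-05).

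Lists of neighbouring stress responses gave a mixed picture at day 11 against day 0. Their counts stand beside 14.5% of all genes higher and 14.3% lower in BE, 15.0% and 14.4% in NC, and 13.7% and 13.6% in DSi cultures. Of 7 NRF2 targets, genes of the oxidative stress response, 4 were lower in BE, 5 in NC and 7 in DSi cultures, and 0 higher, with SRXN1 at -2.20 in BE and -1.90 in NC, and NQO1 at -1.80 in NC and -2.25 in DSi cultures. Of 7 p53 targets, 4, 4 and 2 were lower and 0 higher, with the cell cycle inhibitor CDKN1A at -1.34, -1.74 and -1.04. Of 6 hypoxia genes tested, 2 were higher in each condition, BNIP3 (3.19, 2.72 and 2.66) and ANKRD37 (2.93, 2.47 and 1.91), while ADM was lower (-3.12, -4.38 and -4.11). EGLN3 levels at day 11 were 6.28, 5.76 and 5.69 in BE and 4.87, 5.19 and 5.09 in NC cultures. All lay below its day 0 levels of 6.91, 6.70 and 6.68, while its DSi arrays overlapped those of day 0. Immediate early genes, which respond to growth factors and handling within minutes, split, with 3, 3 and 4 of 7 higher and 3, 3 and 2 lower, EGR1 at 2.05 in NC and 2.76 in DSi cultures among the higher and JUN at -2.20, -2.21 and -2.23 among the lower.

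**Figure D4:**
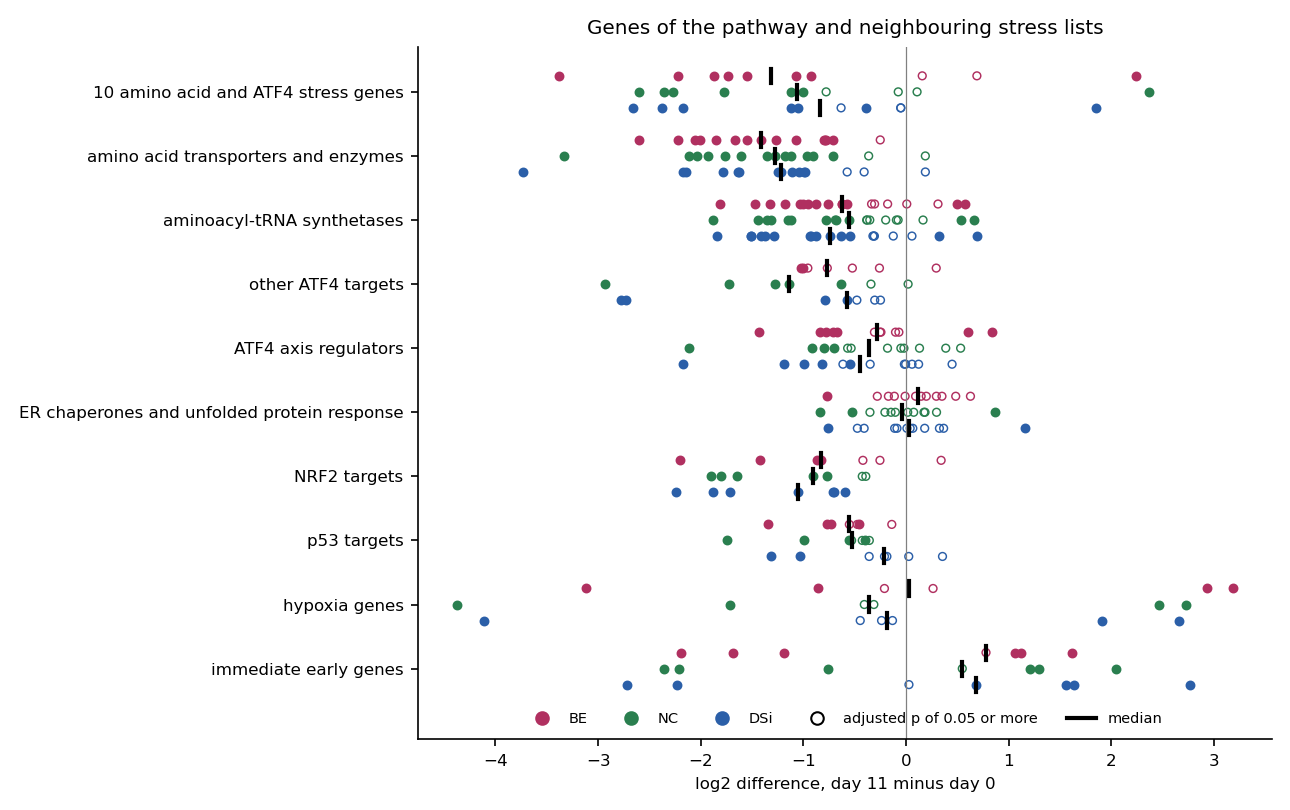
Log2 difference between day 11 and day 0 for each tested gene of the 10 and of 9 lists, by condition, with open points where the adjusted p was 0.05 or more and a bar at each median. Amino acid transporters and enzymes lie below 0 (medians -1.41, -1.28 and -1.22 in BE, NC and DSi). Endoplasmic reticulum chaperones and other unfolded protein response genes lie around it (0.12, -0.04 and 0.02).

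Across the 12 group means, which share the day 0 and day 1 cells, Pearson's r was highest for ASNS and PSAT1 (0.96) and for PSAT1 and PHGDH (0.941), followed by ASNS and SESN2 (0.909). ASNS and PHGDH had r = 0.869. TRIB3 and CHAC1 had r = 0.891, and ATF3 and DDIT3 r = 0.764. DDIT4 ran against them, with r of -0.784 with PSAT1 and -0.722 with ASNS. Among the 9037 other genes whose group means spanned at least 1 log2 unit, the closest to ASNS were KBTBD8 (r = 0.985) and RAP1GAP2 (r = 0.982), and the closest to PSAT1 was NCAPD3 (r = 0.986). CHAC1 was most like MBOAT1 (r = 0.994), TRIB3 like NDUFAF4 (r = 0.978), SESN2 like AGAP10P (r = 0.971), SLC7A11 like CBR3 (r = 0.968) and PHGDH like ECOP (r = 0.962). DDIT3 was most like PSCD1 (r = 0.964) and then HERPUD1 (r = 0.952), which acts in the degradation of endoplasmic reticulum proteins, DDIT4 like ERGIC3 (r = 0.948) and ATF3 like ANXA2 (r = 0.926). With 12 points taken from a time course, these values only describe the order of likeness. SLC7A11 was above background at day 0 alone, and CHAC1 mostly up to day 3. Their r values, that of TRIB3 and CHAC1 included, therefore rest largely on these early groups.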

How the data were processed

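Total RNA of 36 samples was hybridised as biotinylated cRNA to Illumina beadchips. For each array and 47323 probes the deposited probe table holds an average bead intensity on a linear scale, per the file headers, without normalization between arrays. It also holds a detection p-value for each, per the file headers. A second table held the authors' deposited log2 values for 34687 gene symbols, quantile normalized as read from the values, with no background subtracted. The submitters' processing notes name Partek, with no role; the annotation version is not given in the sources used. Probes come without gene names, so each gene of the authors' table was tied to the neighbouring probes whose mean signal gave its values on all 36 arrays through 1 monotone function per array: 34024 genes fitted within a root mean square difference of 0.002, and all 34687 were tied, to 47316 probes. Symbols were updated through RefSeq (GRCh38.p14; 2738 by synonym, 17757 current, 14192 kept).

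Signals were corrected with limma 3.58.1 (R 4.3.3) by normexp (offset 16; background level estimated through the detection p-values), then quantile normalized and taken to log2; the offset compresses differences of dim genes. A probe needed a detection p under 0.05 on 3 or more arrays (29106 did), and each of 22850 genes was read from its probe of highest mean. The 12 group means were fitted over all arrays together (24 residual degrees of freedom), with a trend of the prior variance; tests were two-sided. It was tested on simulated data. Differences are the first-named group minus the second. Groups were taken from the labels; 1 array, DSi day 3 replicate 1, is titled without the suffix of its group. For NC against DSi at days 3, 6 and 11, deviations of same-numbered arrays correlated above 0.1 in every pair. So they did for BE against NC at day 11 (0.112 to 0.308 in all these comparisons). The main tests did not use this pairing, and a replicate block entered only as an alternative. The 12 arrays of a number share a code in their titles, whose meaning is not explained.

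The members and lists were chosen with earlier results of these data known. Values of the 10 genes come first. Named besides are, of each other list described and each comparison, up to 2 genes with the largest called difference in each direction. A list of proliferation genes was also among those tested, and its results are not described here. GDF15, HSPA5, ATF4, EIF2AK4, PPP1R15A and ANKRD37 fall under that rule in at least 1 comparison and are followed beyond it. Of 139 listed genes 131 were tested. The alternatives were no background correction, the authors' values, median scaling, other detection filters, the mean over probes, a replicate block and leaving out each array; median scaling over the 10984 probes detected on all arrays was added after seeing the data. The number of arrays limits the precision. Results on 1 listed gene are not reported here.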

Additional observations from a re-analysis of the deposited data

How the results depend on the processing

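Of 59 calls of the 10 genes in the 15 comparisons of 2 groups, 29 were kept under all 8 alternatives that gave a value and without any 1 of the 36 arrays, and 37 were kept without any 1 array; no called difference changed its sign. The calls kept throughout include ASNS, TRIB3, CHAC1, PSAT1, SLC7A11 and DDIT4 at day 11 against day 0 in all 3 conditions, PHGDH there in BE and NC, ASNS, PSAT1 and ATF3 from day 3 to day 11 in NC and DSi, CHAC1 in NC day 3 against day 1, and ATF3 in NC against DSi at days 6 and 8. With the authors' values 1 gene was called on the first day and 1 in BE day 11 against BE day 8. Median scaling over all probes, whose median lies at background, gave 0 calls for DSi day 3 against day 1, 2 for NC day 3 against day 1, 3 for NC day 11 against NC day 3, 1 for BE day 11 against BE day 8, 1 each for NC against DSi at days 6 and 8, 0 there at day 11, and 1 for BE against NC at day 11. Without a detection filter 0 genes were called in BE day 11 against BE day 8 and 1 in NC against DSi at day 6. Detection p under 0.01 on at least 3 arrays, which removes SLC7A11, gave 1 call in the change from day 3 to day 11 in NC against DSi. The replicate block gave the same 1 call, PHGDH (-0.63, adjusted p = 0.0349); it also gave PHGDH a call in BE day 11 against BE day 8 (adjusted p = 0.0487) and changed no other call of the 10 genes.

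Leaving out 1 array at a time, the number of the 10 genes called was 0 to 3 on the first day, 2 to 6 for NC day 3 and 1 to 5 for DSi day 3 against day 1, 4 to 6 for NC and 3 to 6 for DSi from day 3 to day 11, and 0 to 3 for BE from day 8 to day 11. Against day 0 it was 7 to 8 for BE, 7 to 8 for NC and 6 to 7 for DSi day 11. For NC against DSi it was 0 at day 3, 1 to 2 at day 6, 2 to 3 at day 8 and 2 at day 11, for BE against NC 0 at day 8 and 2 to 4 at day 11, and for the changes 0 to 1 in NC against DSi and 0 in BE against NC. Over all genes, median scaling over all probes turned the share of called genes that were higher to 9.8% on the first day (54.7% with quantile normalization), 66.5% for DSi day 3 against day 1 (51.6%), 81.4% and 69.1% for BE day 11 against BE day 8 and NC day 11 against NC day 3 (51.7% and 49.2%), 33.6% for DSi day 11 against day 0 (50.2%), 42.9% for NC against DSi at day 3 (55.5%), 44.8% and 66.6% for BE against NC at days 8 and 11 (67.4% and 53.5%), and 66.3% and 71.2% for the changes in BE against NC and NC against DSi (46.3% and 53.1%). It called 1044 genes for DSi day 3 against day 1 (2199 with quantile normalization) and 1136 for NC day 3 against day 1 (2980), 2922 for DSi day 11 against DSi day 3 (4833), 1314 for BE day 11 against BE day 8 (2198), 49, 604 and 1570 for NC against DSi at days 3, 6 and 11 (110, 1230 and 2538), 281 for BE against NC at day 8 (423) and 785 for the change in NC against DSi (1242). Median scaling over the probes detected on all arrays shifted the median of all genes by up to 0.272 (day 1 against day 0, where 69.5% of called genes were higher, against 54.7% with quantile normalization). It made the share 30.2% for the change in BE against NC (46.3%). Relative to the first-day shift TRIB3 was still lower and DDIT4 still higher, while SLC7A11 lost its call (-0.22, adjusted p = 0.557); it also lost it with no background correction (adjusted p = 0.0813) and the authors' values (adjusted p = 0.0886), which both called it in NC against DSi at days 6 and 8 (adjusted p = 0.0108 to 0.0277), where it was not above background. Signals near background limit SLC7A11, above it on 3 arrays, and CHAC1, above it on 10. The 3 arrays of SLC7A11 were those of day 0, so its kept calls against day 0 could only be lower.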
